A study of Mus musculus and Homo sapiens with 19 samples.

Results

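Bend3 is a mouse brain endothelial line immortalised with the polyoma virus middle T antigen, and the question here is how its transcriptome differed after culture together with 4T1, a mouse mammary carcinoma line. The comparison sets 1 library of Bend3 cells that had been cultured with 4T1 and then separated from it by fluorescence-activated sorting against 1 library of Bend3 cells grown on their own. These are 2 of the 19 libraries of a study on PHGDH, the enzyme that opens serine synthesis, in cancer cell dissemination. Another 2 libraries serve as aids: the 4T1 cells of the same co-culture, used only to bound tumour RNA carried into the sorted Bend3 cells, and Bend3 cells sorted from culture with EMT6.5, a further mouse breast cancer line, whose values stand beside the others as a description. No genetic change or drug is named in the labels for any of these cultures. The labels do not give the culture time, the medium or the cell ratio, and they mention sorting for the co-cultures alone, so partner cells and sorting cannot be told apart as sources of a difference. Bend3 is a single immortalised line, and each condition was sequenced once, so no difference below has a replicate check and none carries a p-value.

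Endothelial cells line blood vessels and are held together by junction proteins such as PECAM1 and VE-cadherin. They answer interferons through receptors that activate STAT proteins, which with IRF9 bind response elements in front of interferon-stimulated genes, whose products degrade viral RNA, block translation or present antigen. They also answer TGF-beta through SMAD proteins, and build the basement membrane on which the vessel wall rests.

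Values are read counts per gene, scaled to counts per 1000000 assigned reads (CPM) with a trimmed-mean factor. A ratio is the level with 4T1 over the level alone, and it is given with an exact binomial 95% interval that covers counting error only, since reads carry no molecular identifiers. "Higher" and "lower" describe these 2 libraries, and a gene is counted when its ratio is 2 or more, or 0.5 or less. The interval says how well a ratio is counted, not whether a second culture would repeat it. In bulk RNA, a difference in RNA per cell and a difference in the share of cells of one kind cannot be told apart.

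The Bend3 library with 4T1 held 5873737 reads assigned to genes, that with EMT6.5 held 5754247 and that of Bend3 alone held 4780135. Mitochondrial genes took 8.29% of reads with 4T1, 6.4% with EMT6.5 and 8.2% alone. Of 55573 genes, 9952 reached a mean of 5 CPM over the library with 4T1 and the library alone. All 20 endothelial markers were among them, with a summed level of 13160 CPM with 4T1, 14170 CPM with EMT6.5 and 11450 CPM alone. Of 20 epithelial markers, 10 reached 1 CPM with 4T1 and 1 did so alone, and their sums were 56.5 CPM with 4T1, 8.69 CPM with EMT6.5 and 3.14 CPM alone, against 2392 CPM in the 4T1 cells. The epithelial markers Ehf, Grhl2, Krt14 and Krt17 were among those at 0 with 4T1 and alone. Fibroblast and mural cell markers summed to 9.98 CPM with 4T1, 34.9 CPM with EMT6.5 and 7.11 CPM alone, and Dcn, Lum, Thy1, Rgs5 and Cspg4 were at 0 with 4T1 and alone. Leukocyte markers summed to 279.2 CPM with 4T1, 220.8 CPM with EMT6.5 and 402.7 CPM alone, nearly all of it Cd68, while Adgre1, Cd3e, Cd79a, Csf1r, Laptm5, Ptprc and Tyrobp were at 0 with 4T1 and alone.

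Transcripts abundant in 4T1 and near absent from Bend3 alone were found at a low level in the sorted Bend3 cells. In the 4T1 cells of the co-culture, 96 genes were at 50 CPM or more while standing at 0.5 CPM or less in Bend3 alone, and they summed to 246.7 CPM in Bend3 with 4T1, 109.1 CPM in Bend3 with EMT6.5 and 10.2 CPM in Bend3 alone. Their level in Bend3 with 4T1 was 1.87% of that in 4T1 (95% counting interval 1.77% to 1.97%), with 3.31% as the 90th percentile over the genes. Axl, a receptor tyrosine kinase, had the highest level of them in 4T1, at 4067 reads there, and had 96 reads in Bend3 with 4T1, 46 with EMT6.5 and 2 alone. Krt18, a keratin of simple epithelia, had 85 reads with 4T1, 24 with EMT6.5 and 2 alone, and Mgp, matrix Gla protein, had 58 with 4T1, 20 with EMT6.5 and 0 alone. Krt7, another keratin, had 93 reads with 4T1, 6 with EMT6.5 and 2 alone, and 27% of its level with 4T1 lies within the share. The tensin Tns4 had 25 reads with 4T1, 0 with EMT6.5 and 0 alone, and the protease inhibitor Slpi 34 with 4T1, 26 with EMT6.5 and 2 alone. A gene whose level with 4T1 was less than 2 times what this share of 4T1 RNA would bring was set aside as possible carry-over. The 96 genes give a bound for RNA that any 4T1 cell or its debris brings along, and cannot tell it from expression of the same genes in Bend3.

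**Figure D1:**
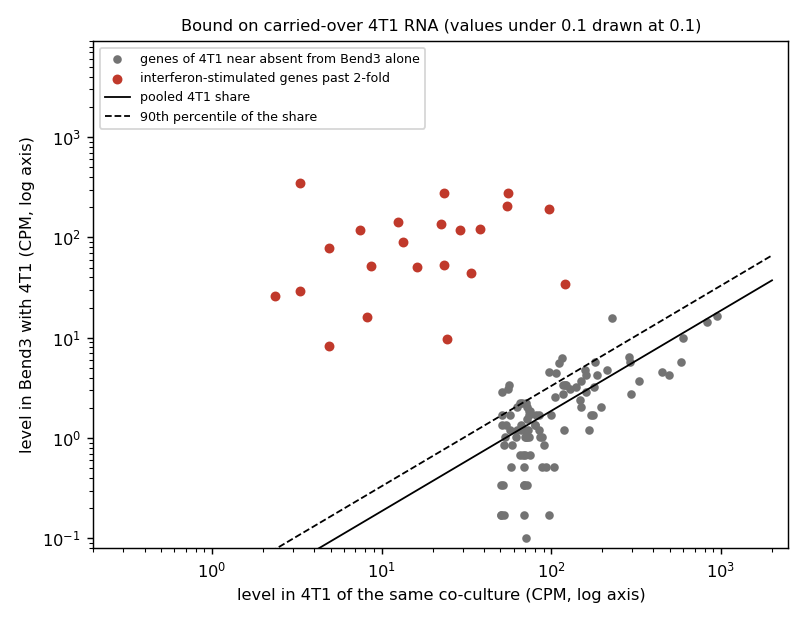
Level of each gene in Bend3 with 4T1 (vertical, CPM, log axis) against its level in the 4T1 cells of the same co-culture (horizontal, CPM, log axis), with 96 genes near absent from Bend3 alone in grey and the interferon-stimulated genes past 2-fold in red. The solid line is the pooled share of 1.87% and the dashed line the 90th percentile of 3.31%; the 22 red genes all lie above both lines.

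With 4T1, 272 of the 9952 genes were at least 2-fold higher (2.73%) and 190 were at least 2-fold lower (1.91%). These shares of all genes are the background for every list count below. The whole counting interval lay past 2-fold for 76 of the higher and 37 of the lower genes. Possible carry-over accounted for 8 of the 272: Axl, Crip1, Igf2r, Krt18, Sox9, Spp1, Trps1 and Wfdc2, a set listed after its values were seen. That left 264 genes (2.65%). After subtraction of the 4T1 share, 242 of the 272 were still counted as higher, and 232 after subtraction of its 90th percentile. Some of the 264 calls thus also depend on the 4T1 share. Most genes moved little, with 83.2% within 1.5-fold and a median log2 ratio of 0.00. Interferon-stimulated genes made up 22 of the higher genes and had the highest median of the lists with 5 or more members past the filter, so they come first.

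**Figure D2:**
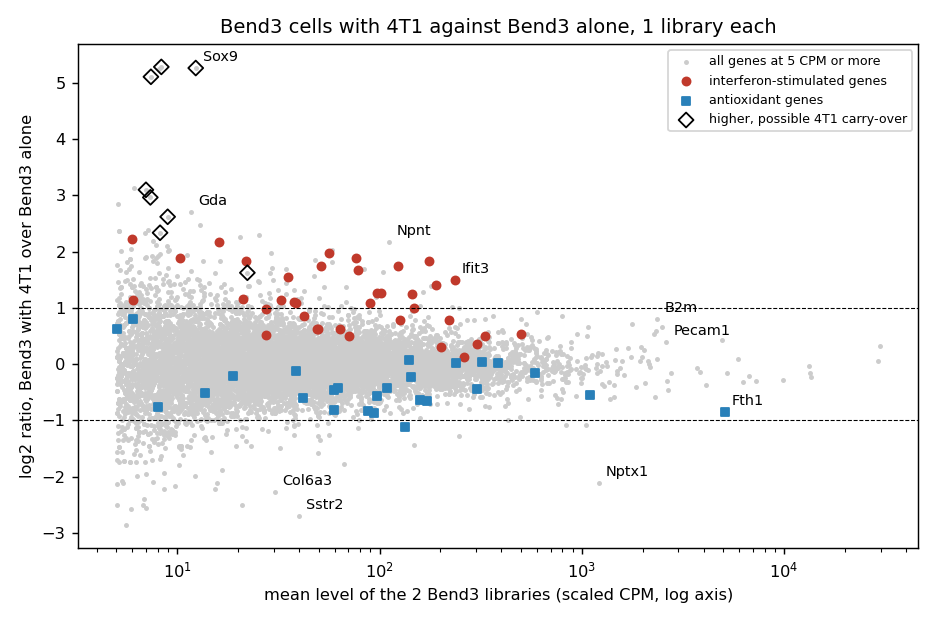
Log2 ratio of Bend3 with 4T1 over Bend3 alone (vertical) against the mean level of the 2 libraries (horizontal, scaled CPM, log axis), 1 point per gene for the 9952 genes at 5 CPM or more; dashed lines mark 2-fold. Interferon-stimulated genes (red) lie above 0 throughout, most antioxidant genes (blue squares) lie below it, and the 8 higher genes that may be carry-over are ringed by diamonds.

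The promoters of several of the interferon-stimulated genes carry the letters of the interferon-stimulated response element, and 6 windows are printed as examples. All 6 hold the element, which 16 of the list's 34 windows do. Each is a RefSeq window of 250 bases before to 50 bases after the gene's start on GRCm38.p6, written along the gene, in lower case. Capitals mark every match to the element, searched on both strands as GAAA, any 2 bases, GAAA, which reads TTTC, any 2 bases, TTTC from the opposite strand. The windows are chr19:34640639-34640938 (plus strand) for Ifit1, chr19:34583279-34583578 (plus) for Ifit3, chr19:34607707-34608006 (plus) for Ifit3b, chr4:156200769-156201068 (minus) for Isg15, chr12:26456403-26456702 (minus) for Rsad2 and chr3:142559794-142560093 (plus) for Gbp3. Gbp3 has a second window, chr3:142560106-142560405 (plus), which holds 0 matches and is not printed.

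Ifit1: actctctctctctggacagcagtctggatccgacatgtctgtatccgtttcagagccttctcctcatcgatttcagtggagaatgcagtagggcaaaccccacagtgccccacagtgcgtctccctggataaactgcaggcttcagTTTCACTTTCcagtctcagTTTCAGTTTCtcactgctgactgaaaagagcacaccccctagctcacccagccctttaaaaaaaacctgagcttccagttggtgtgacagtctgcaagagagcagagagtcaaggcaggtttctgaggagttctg
Ifit3: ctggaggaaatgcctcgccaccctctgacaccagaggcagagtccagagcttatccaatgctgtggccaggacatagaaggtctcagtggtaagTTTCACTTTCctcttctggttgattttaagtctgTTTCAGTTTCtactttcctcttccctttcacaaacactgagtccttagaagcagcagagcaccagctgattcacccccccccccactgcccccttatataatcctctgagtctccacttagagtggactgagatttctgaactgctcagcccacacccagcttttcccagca
Ifit3b: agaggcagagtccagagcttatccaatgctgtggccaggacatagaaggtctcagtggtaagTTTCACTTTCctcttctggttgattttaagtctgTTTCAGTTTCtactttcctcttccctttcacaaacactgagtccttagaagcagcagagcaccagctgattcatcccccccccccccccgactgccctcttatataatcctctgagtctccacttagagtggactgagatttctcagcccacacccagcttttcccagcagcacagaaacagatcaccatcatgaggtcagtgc
Isg15: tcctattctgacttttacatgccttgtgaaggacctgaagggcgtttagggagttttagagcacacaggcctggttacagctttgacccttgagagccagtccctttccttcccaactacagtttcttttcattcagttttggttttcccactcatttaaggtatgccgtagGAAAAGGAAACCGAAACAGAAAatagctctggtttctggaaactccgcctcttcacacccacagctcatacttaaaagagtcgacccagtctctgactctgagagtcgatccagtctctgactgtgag
Rsad2: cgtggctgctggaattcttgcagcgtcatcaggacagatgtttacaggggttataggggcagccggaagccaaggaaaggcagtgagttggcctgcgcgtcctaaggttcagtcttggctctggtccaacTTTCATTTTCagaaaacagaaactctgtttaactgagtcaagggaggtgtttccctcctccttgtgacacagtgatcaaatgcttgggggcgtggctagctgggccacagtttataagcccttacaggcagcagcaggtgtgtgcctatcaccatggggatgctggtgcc
Gbp3: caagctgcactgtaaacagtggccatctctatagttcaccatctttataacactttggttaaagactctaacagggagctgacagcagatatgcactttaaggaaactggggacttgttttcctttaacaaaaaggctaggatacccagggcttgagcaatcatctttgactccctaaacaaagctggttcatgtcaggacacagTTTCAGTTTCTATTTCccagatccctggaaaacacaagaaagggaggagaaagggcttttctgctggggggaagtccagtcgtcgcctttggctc

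Ifit3 and Ifit3b, both on chromosome 19, share 201 of 268 bases of these windows (75%) in an ungapped comparison, and their matches have the same letters. A run of c differs in length between the 2 windows, so the bases past it are compared out of step. The 75% therefore understates how alike the windows are. In Isg15, 3 matches overlap, and in Gbp3 the 2 matches overlap. A match is a description of letters and not a shown binding site.

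Of the 37 interferon-stimulated genes past the level filter, 28 had RefSeq promoters, and 16 of their 34 windows (47.1%) held the element on either strand, against 298 of 9940 windows of the genes past the filter (3%) and 1131 of all 32851 windows (3.44%). Among the 22 genes past 2-fold, 18 had promoters and 11 of 22 windows held it (50%). Among the 15 that were not past 2-fold, 5 of 12 windows held it (41.7%). The genes past 2-fold that are not on the list held it in 17 of 257 windows (6.61%), and the genes at least 2-fold lower in 2 of 180 windows (1.11%).

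Another 9 motifs were searched on both strands, and none is said here to be bound. Each share below is of the windows of the 2-fold higher genes, then of the 2-fold lower genes, then of all genes past the filter, then of all promoters in the table. The kappaB element (GGG, any 2 bases, TT, any base, CC) was in 6.45%, 3.33%, 5.58% and 4.79% of these windows. The AP-1 element (TGANTCA) was in 7.17%, 5.56%, 4.87% and 7.81%, and the SREBP element (TCAC, any base, CCAC) in 3.23%, 0.556%, 1.08% and 1.24%. The RBPJ element (GTGGGAA) was in 5.73%, 11.1%, 5.7% and 6.38%, and the antioxidant element (TGAC, any 3 bases, GC) in 15.1%, 20.6%, 14.5% and 12.4%. The GGCGCC element of BMP-activated SMAD proteins was in 14.7%, 21.7%, 21.8% and 11.9%, and the TEAD element (GGAATG) in 14%, 7.78%, 11.8% and 14.7%. The hypoxia element (NACGTG) was in 19.4%, 22.8%, 26.5% and 19.6%, and the E2F element (TTT, any base, GCGC) in 1.43%, 1.67%, 2.59% and 1.38%. The genes past the filter are the set from which the higher and lower genes were drawn.

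Interferon-stimulated genes were higher with 4T1 across the list. Of its 40 members, 37 passed the level filter, and Mx1, Oas3 and Zbp1 did not. Of these 37, 22 were at least 2-fold higher (59.5%, beside 2.73% of all genes), 0 were at least 2-fold lower and 15 were neither. All 37 ratios were above 1, which held for 50.4% of all genes, and all 37 whole counting intervals were above 1, which held for 22.7%. The median log2 ratio was 1.14, with a range of 0.12 to 2.23, beside 0.00 over all genes. Summed over the 37 genes, the level was 5282 CPM with 4T1, 2322 CPM with EMT6.5 and 2854 CPM alone. The 4T1 share would bring 28.2 CPM to this sum, and for no member more than 6.5% of its level.

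The IFIT genes encode proteins that bind viral RNA lacking the host's cap marks, and 4 of them lie together on chromosome 19 between 34550694 and 34650009 (GRCm38). The members described from here to the end of the list, other than Cmpk2, Iigp1, Oas2, Oasl1, Ifi44, Ifit3b, Bst2 and Ly6e, were picked after their values were seen. Ifit3 stood at 347 CPM (2048 reads) with 4T1, 77.5 CPM with EMT6.5 and 123 CPM (587 reads) alone, a ratio of 2.82 (2.57 to 3.10). Ifit1 stood at 276 CPM with 4T1, 67.1 CPM with EMT6.5 and 105 CPM alone, a ratio of 2.63 (2.38 to 2.92). Ifit3b stood at 120 CPM with 4T1, 18.1 CPM with EMT6.5 and 32.6 CPM alone, a ratio of 3.67 (3.08 to 4.39). All 3 were highest with 4T1 and lowest with EMT6.5. Ifit2 had a ratio of 3.34 (2.72 to 4.14), at 79.0 CPM with 4T1, 18.7 CPM with EMT6.5 and 23.6 CPM alone. Reads that fit Ifit3 and Ifit3b equally well would be dropped as not unique, so the split between the 2 is uncertain.

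The oligoadenylate synthetases make the messenger that switches on RNase L. Oas2 stood at 16.2 CPM (96 reads) with 4T1, 0.341 CPM (2 reads) with EMT6.5 and 4.39 CPM (21 reads) alone, and its ratio was 3.70 (2.29 to 6.24). The 2 reads with EMT6.5 lie under the floor of 3 counts, so the ratio of EMT6.5 co-culture to Bend3 alone, 0.0775, has a wide interval (0.00881 to 0.317). Oasl2, of the same family, stood at 190 CPM with 4T1, 32.9 CPM with EMT6.5 and 56.9 CPM alone, a ratio of 3.34 (2.93 to 3.83). Its neighbour on chromosome 5, Oasl1, gave the list's highest ratio, 4.69, but on 58 reads with 4T1 and 10 alone, so its interval runs from 2.38 to 10.3.

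Isg15 encodes a ubiquitin-like protein and Usp18 the protease that removes it. Isg15 stood at 52.6 CPM with 4T1, 11.9 CPM with EMT6.5 and 18.0 CPM alone, a ratio of 2.92 (2.30 to 3.76). Usp18 stood at 52.5 CPM with 4T1, 12.4 CPM with EMT6.5 and 24.7 CPM alone, a ratio of 2.12 (1.71 to 2.65). Both were highest with 4T1. Rsad2, the antiviral radical enzyme viperin, and Cmpk2, a nucleotide kinase, are neighbours on chromosome 12. Rsad2 stood at 143 CPM with 4T1, 45.3 CPM with EMT6.5 and 59.8 CPM alone, a ratio of 2.39 (2.08 to 2.74). Cmpk2 stood at 26.2 CPM with 4T1, 4.43 CPM with EMT6.5 and 5.86 CPM alone, a ratio of 4.48 (2.98 to 6.96). Isg20, an RNA exonuclease, had a ratio of 3.55 (2.57 to 5.01), and the 4T1 share would bring 6.5% of its level, the most in the list.

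Guanylate-binding and immunity-related GTPases act on membranes around intracellular pathogens. Iigp1 stood at 89.5 CPM with 4T1, 25.7 CPM with EMT6.5 and 22.8 CPM alone, a ratio of 3.93 (3.19 to 4.87). On chromosome 3, the neighbours Gbp7, Gbp3 and Gbp2 had ratios of 2.37 (2.12 to 2.66), 2.22 (1.66 to 3.01) and 2.15 (1.73 to 2.69). Igtp, at 1.80 (1.48 to 2.21), and Irgm1, at 1.55 (1.29 to 1.86), were not past 2-fold. Ifi44, whose protein holds a GTP-binding motif, stood at 275 CPM (1626 reads) with 4T1, 59.4 CPM (349 reads) with EMT6.5 and 77.2 CPM (369 reads) alone, a ratio of 3.56 (3.18 to 4.00). It was highest with 4T1.

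The transcription factors of the response differed in size as well. Irf7, which amplifies type I interferon expression, stood at 119 CPM with 4T1, 22.5 CPM with EMT6.5 and 37.4 CPM alone, a ratio of 3.19 (2.70 to 3.78). Stat2 stood at 137 CPM with 4T1, 78.9 CPM with EMT6.5 and 56.9 CPM alone, a ratio of 2.41 (2.09 to 2.77). Irf9 had a ratio of 1.72 (1.54 to 1.93) and Irf1 one of 1.41 (1.22 to 1.64). The abundant members Ly6e, a membrane-anchored protein, and Bst2, the virus tether tetherin, had ratios of 1.45 (1.37 to 1.53) and 1.42 (1.33 to 1.52). Among the cytosolic RNA sensors, Ifih1 was past 2-fold at 2.20 (1.74 to 2.81), while Dhx58 at 1.43 (1.12 to 1.83) and Ddx58 at 1.23 (1.13 to 1.34) were not. Trim25, a ubiquitin ligase of that sensor pathway, had the list's lowest ratio, 1.09 (1.01 to 1.17).

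**Figure D3:**
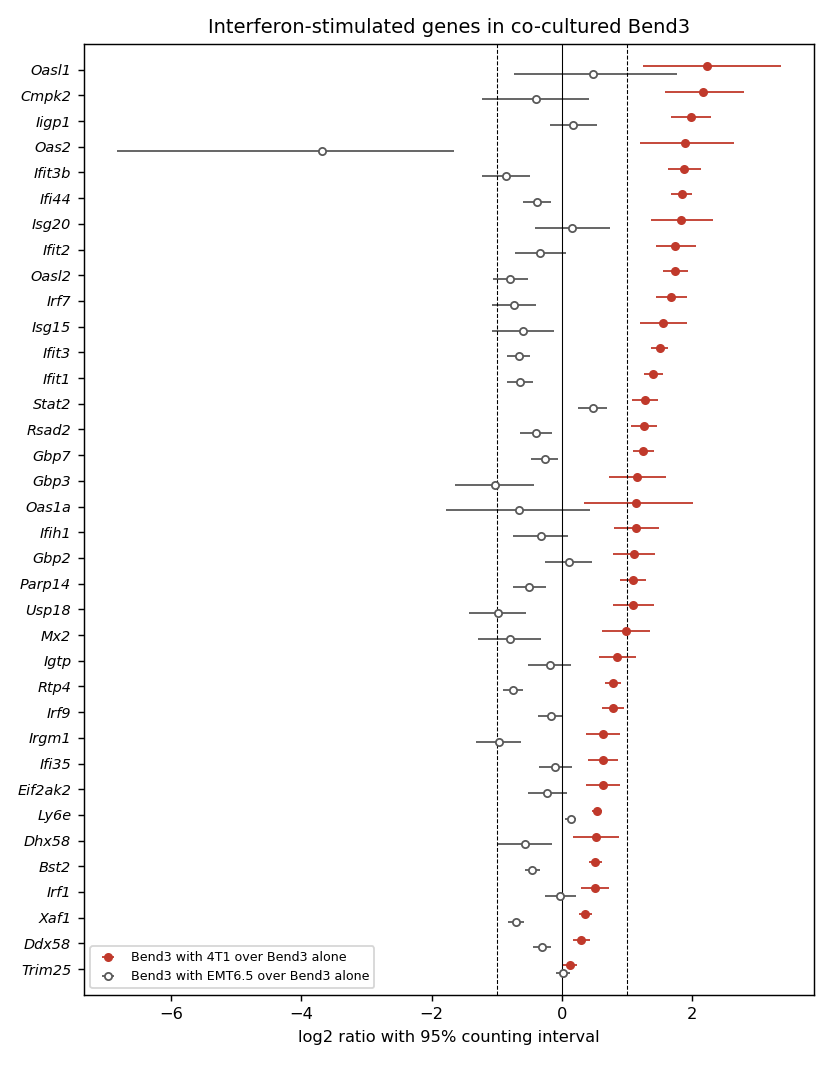
Log2 ratio over Bend3 alone of 36 of the 37 interferon-stimulated genes at 5 CPM or more, for Bend3 with 4T1 (red) and Bend3 with EMT6.5 (open), with bars for the 95% counting interval and dashed lines at 2-fold. With 4T1 all 36 intervals lie above 0; with EMT6.5, 7 of the 36 points lie above 0.

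With EMT6.5, the same 37 genes had a median log2 ratio of -0.40 over Bend3 alone, and 0 of them were at least 2-fold higher and 2 at least 2-fold lower, beside 2% and 2.33% of all genes. Both co-culture ratios use the same library of Bend3 alone. Set directly against the library with EMT6.5, a comparison added after these values were seen, 28 of the 37 were at least 2-fold higher with 4T1 (2.58% of all genes were), with a median ratio of 3.03. The difference between partners was not tested, since each is 1 library.

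Of the interferon genes, 7 were looked up. Ifnb1, Ifna1, Ifna2, Ifna4, Ifng, Ifnl2 and Ifnl3 had 0 reads in each of the 3 Bend3 libraries, which at 3 counts allows up to 0.508 CPM with 4T1, 0.511 CPM with EMT6.5 and 0.628 CPM alone. Reads shared by near-identical interferon genes would be dropped as not unique. In a list of interferons, receptors and nucleic acid sensors, added after the values were seen, 14 of 24 members passed the filter, and 0 of them were at least 2-fold higher or lower. Ifnar1, a chain of the type I interferon receptor, stood at 88.3 CPM with 4T1, 52.8 CPM with EMT6.5 and 51.3 CPM alone, a ratio of 1.72 (1.48 to 2.01). The median log2 ratio of the 14 was 0.09.

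Class I antigen presentation shares many of its genes with the interferon response. Of 23 members, 15 passed the filter, 3 were at least 2-fold higher (20%, beside 2.73% of all genes) and 0 lower. The median log2 ratio was 0.57, against -0.13 with EMT6.5. H2-K1, a class I heavy chain, stood at 90.5 CPM (535 reads) with 4T1, 29.5 CPM (173 reads) with EMT6.5 and 23.4 CPM (112 reads) alone, a ratio of 3.86 (3.15 to 4.78). H2-D1, its close relative, chosen after its values were seen, had a ratio of 1.48 (1.38 to 1.58), and reads common to both genes would not be counted. B2m, the light chain of every class I molecule, stood at 3005 CPM with 4T1, 1482 CPM with EMT6.5 and 1722 CPM alone, a ratio of 1.75 (1.70 to 1.79). Erap1, which trims peptides, and Psmb8, an immunoproteasome subunit, had ratios of 2.18 (1.68 to 2.86) and 2.1 (1.45 to 3.11). The 4T1 share would bring 10.1% of the Psmb8 level.

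Genes of adhesion and NF-kB signalling moved less, though mostly upward. The median log2 ratio was 0.37 with 4T1 and 0.38 with EMT6.5. With 4T1, 16 of the 18 members past the filter had ratios above 1, beside 50.4% of all genes. The whole interval lay above 1 for 10 of the 18, beside 22.7% of all genes. Of 26 members, 18 passed the filter and 2 were at least 2-fold higher (11.1%, beside 2.73% of all genes). These were Ripk2, a kinase of innate receptors, at 2.49 (1.70 to 3.74), and Birc3, an inhibitor of apoptosis, at 2.06 (1.33 to 3.29). Vcam1, a leukocyte adhesion molecule, stood at 470 CPM with 4T1, 313 CPM with EMT6.5 and 261 CPM alone, a ratio of 1.80 (1.69 to 1.93). The inhibitor Nfkbia had a ratio of 1.30 (1.22 to 1.38). Icam1 had 2 reads with 4T1, 4 with EMT6.5 and 2 alone, too few for a comparison. Of 36 chemokines, cytokines and growth factors, 10 passed the filter and 0 were past 2-fold in either direction.

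TGF-beta and BMP genes moved in both directions. Of 39 members, 30 passed the filter, 5 were at least 2-fold higher (16.7%, beside 2.73% of all genes) and 1 was lower. The median log2 ratio was 0.13. Smad7, an inhibitory SMAD, stood at 14.4 CPM (85 reads) with 4T1, 6.98 CPM (41 reads) with EMT6.5 and 3.56 CPM (17 reads) alone, a ratio of 4.04 (2.38 to 7.26). Pmepa1, a membrane protein that dampens SMAD signalling, stood at 261 CPM with 4T1, 363 CPM with EMT6.5 and 99.6 CPM alone, a ratio of 2.62 (2.36 to 2.91). Both were lowest in Bend3 alone, and Pmepa1 was highest with EMT6.5. The co-repressor Skil, named after its values were seen, had ratios of 2.08 (1.62 to 2.69) with 4T1 and 2.62 (2.06 to 3.36) with EMT6.5, and the ligand Tgfb2 had 2.18 (1.73 to 2.78) with 4T1 and 1.07 (0.817 to 1.40) with EMT6.5.

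Some BMP-related members had ratios below 1, while others, such as the receptor Bmpr2 and the mediators Smad1 and Smad5, had ratios above 1. Id2, an inhibitor of helix-loop-helix factors that BMP signals induce, stood at 80.2 CPM with 4T1, 97.3 CPM with EMT6.5 and 217 CPM alone, a ratio of 0.370 (0.332 to 0.413). Id1 had a ratio of 0.752 (0.693 to 0.816) and Id3 one of 0.879 (0.757 to 1.02), both read after their values were seen. Bmp4, a BMP ligand, stood at 282 CPM with 4T1, 256 CPM with EMT6.5 and 409 CPM alone, a ratio of 0.689 (0.645 to 0.735). Acvrl1, the endothelial BMP receptor ALK1, had a ratio of 0.775 (0.716 to 0.840).

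**Figure D4:**
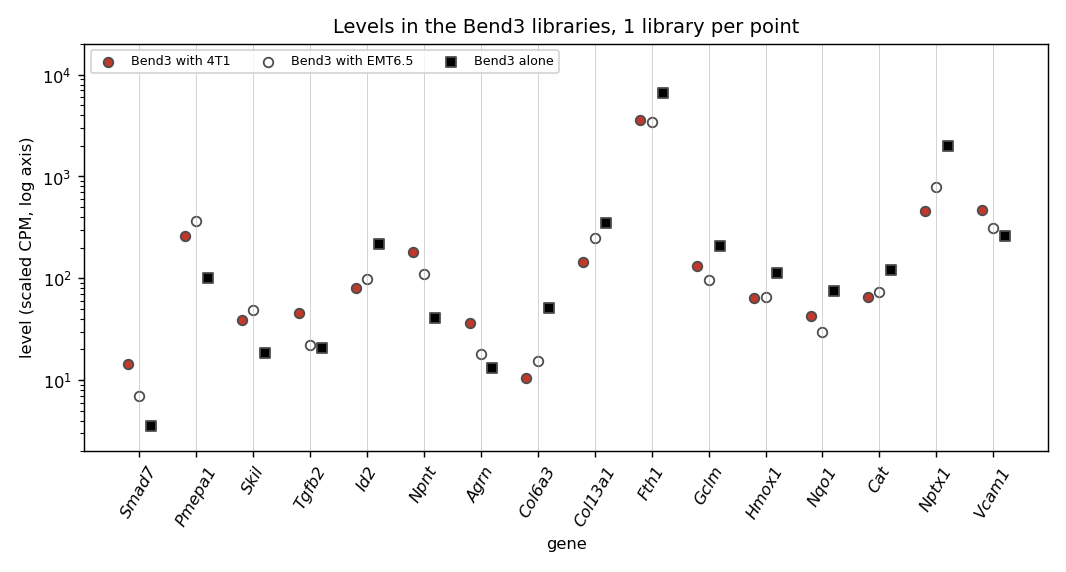
Levels (scaled CPM, log axis) of 16 genes in Bend3 with 4T1 (red), Bend3 with EMT6.5 (open) and Bend3 alone (black), 1 library per point. Smad7, Pmepa1 and Npnt are lowest in Bend3 alone, while Id2, Col6a3, Fth1 and Nptx1 are highest there.

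Matrix genes were mixed. Of 22 basement membrane genes, 14 passed the filter and 2 were at least 2-fold higher (14.3%, beside 2.73% of all genes). Npnt encodes nephronectin, an integrin ligand of basement membranes, and lies on chromosome 3 between 132881745 and 132950291. It stood at 183 CPM (1081 reads) with 4T1, 110 CPM (648 reads) with EMT6.5 and 40.6 CPM (194 reads) alone, a ratio of 4.51 (3.86 to 5.28). Agrn, the heparan sulfate proteoglycan agrin, stood at 36.7 CPM with 4T1, 17.9 CPM with EMT6.5 and 13.2 CPM alone, a ratio of 2.79 (2.1 to 3.75). Both were highest with 4T1. Col4a1 and Sparc moved little, with ratios of 1.05 (1.02 to 1.08) and 1.07 (1.05 to 1.08). Over the 14 basement membrane genes, 11 ratios were above 1, beside 50.4% of all genes. Their whole interval lay above 1 for 9 and below 1 for 1, beside 22.7% and 22.5% of all genes. Fibronectin, Fn1, had a ratio of 1.92 (1.72 to 2.14), and the 4T1 share would bring 12.1% of its level.

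Of 25 collagens, 11 passed the filter, 0 were at least 2-fold higher and 3 were lower, beside 2.73% and 1.91% of all genes. The whole interval lay below 1 for 5 of the 11 and above 1 for 3, beside 22.5% and 22.7% of all genes. Col6a3, a chain of beaded-filament collagen, stood at 10.5 CPM (62 reads) with 4T1, 15.5 CPM (91 reads) with EMT6.5 and 50.6 CPM (242 reads) alone, a ratio of 0.207 (0.154 to 0.275). Col13a1, a transmembrane collagen, stood at 144 CPM with 4T1, 246 CPM with EMT6.5 and 349 CPM alone, a ratio of 0.412 (0.379 to 0.448). Col5a3 had a ratio of 0.411 (0.258 to 0.643). The adhesion-modulating matrix protein Tnc had a ratio of 0.415 (0.334 to 0.515), and the calcium-binding S100a4 stood at 668 CPM with 4T1, 654 CPM with EMT6.5 and 1422 CPM alone, a ratio of 0.470 (0.452 to 0.489). Tnc and S100a4 were the 2 lower of 13 mesenchymal transition genes past the filter, of which 0 were higher, beside 1.91% and 2.73% of all genes. These 5 genes were all highest in Bend3 alone. Of 18 of 38 matricellular and secreted matrix proteins past the filter, 1 was lower and 1 higher, beside the same shares of all genes. Tnc was the lower, and Spp1, osteopontin, was the higher as possible carry-over.

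Among 22 of 32 proteases and inhibitors past the filter, 2 were at least 2-fold higher (9.09%) and 1 lower, beside 2.73% and 1.91% of all genes. The higher genes included Mmp19, a matrix metalloprotease, at 2.20 (1.52 to 3.25). Mmp3, another metalloprotease, was lower at 0.310 (0.183 to 0.509), though the 4T1 share would bring 117% of its level with 4T1, more than all of it. Of 10 integrins past the filter, 1 was at least 2-fold higher (10%, beside 2.73% of all genes) and 0 lower. This was Itga2, a collagen receptor chain, at 3.24 (1.74 to 6.48) on 52 reads with 4T1 and 13 alone, with 28.5% of its level within the 4T1 share. Itgav had a ratio of 1.15 (0.95 to 1.39) and Itgb3 one of 1.14 (1.02 to 1.28), and these chains pair as the vitronectin receptor.

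Antioxidant genes lay lower as a group, with few past 2-fold. Of 28 NRF2 and antioxidant genes, 26 passed the filter, 0 were at least 2-fold higher and 1 was lower, but 20 ratios were below 1 (49.6% of all genes were). The whole interval lay below 1 for 18 of the 26, beside 22.5% of all genes. The median log2 ratio was -0.45 with 4T1 and -0.36 with EMT6.5. Fth1, the ferritin heavy chain that stores iron, stood at 3610.2 CPM with 4T1, 3416 CPM with EMT6.5 and 6549 CPM alone, a ratio of 0.551 (0.542 to 0.561). Gstm1, a glutathione transferase, stood at 84.4 CPM with 4T1, 69.7 CPM with EMT6.5 and 182 CPM alone, a ratio of 0.464 (0.415 to 0.518). The peroxiredoxin Prdx1 had a ratio of 0.683 (0.658 to 0.709).

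The following members were chosen after their values were seen. Hmox1, heme oxygenase, stood at 63.4 CPM with 4T1, 65.1 CPM with EMT6.5 and 113 CPM alone, a ratio of 0.563 (0.492 to 0.643). Nqo1, a quinone reductase, stood at 43.0 CPM with 4T1, 29.8 CPM with EMT6.5 and 75.5 CPM alone, a ratio of 0.569 (0.483 to 0.670). Cat, catalase, had a ratio of 0.545 (0.478 to 0.621) and Gclm, of glutathione synthesis, one of 0.636 (0.578 to 0.699). Each of these 4 was highest in Bend3 alone.

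Other metabolic groups shifted slightly. Of 36 genes of cholesterol and fatty acid metabolism, 29 passed the filter. Of these, 0 were at least 2-fold higher and 3 lower, beside 2.73% and 1.91% of all genes, with a median log2 ratio of -0.22. The whole interval lay below 1 for 14 of the 29 and above 1 for 0, beside 22.5% and 22.7% of all genes. Among the lower genes, the enzymes Hsd17b7 and Mvd had ratios of 0.424 (0.269 to 0.656) and 0.482 (0.306 to 0.751). None of the 28 respiratory chain genes was past 2-fold, but 25 were below 1, beside 49.6% of all genes, and 21 had the whole interval below 1, beside 22.5%, around a median log2 ratio of -0.22. Among 22 endoplasmic reticulum folding genes past the filter, 0 were past 2-fold, 19 were below 1 and 13 had the whole interval below 1, beside the same shares of all genes, with Hspa5, the chaperone BiP, at 0.927 (0.889 to 0.965).

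Serine synthesis, the pathway of the study's title, had few genes past 2-fold in these endothelial cells. Of 28 serine and one-carbon genes, 20 passed the filter, with a median log2 ratio of -0.19. Of the 20, 1 was at least 2-fold higher (5%, beside 2.73% of all genes) and 0 lower. The whole interval lay below 1 for 8 and above 1 for 5, beside 22.5% and 22.7% of all genes. Phgdh had 190 reads with 4T1, 165 with EMT6.5 and 177 alone, which are 32.1, 28.1 and 37.0 CPM in that order, and its ratio over Bend3 alone of 0.868 (0.704 to 1.07) has an interval that spans 1. Psat1, the next enzyme, stood at 144 CPM with 4T1, 145 CPM with EMT6.5 and 204 CPM alone, a ratio of 0.708 (0.645 to 0.776). Shmt2, which splits serine in mitochondria, had a ratio of 0.821 (0.754 to 0.894). The higher gene was Slc1a4, a serine and alanine transporter, at 39.9 CPM with 4T1, 39.0 CPM with EMT6.5 and 16.7 CPM alone, a ratio of 2.39 (1.84 to 3.11). Of 35 ATF4 and amino acid stress genes past the filter, 3 were at least 2-fold higher (8.57%, beside 2.73% of all genes). These were Slc1a4, the stress factor Atf3 at 2.34 (1.78 to 3.09) and the stress protein Nupr1 at 2.29 (2.00 to 2.64). The median log2 ratio of the 35 was 0.29. Their whole interval lay above 1 for 18 and below 1 for 5, beside 22.7% and 22.5% of all genes. Of the 22 hexosamine and sialic acid genes past the filter, 1 was at least 2-fold higher (4.55%, beside 2.73% of all genes). This was Gfpt2, which opens the hexosamine pathway, at 2.09 (1.21 to 3.75), and the list's median log2 ratio was -0.16.

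Endothelial identity genes stayed within 2-fold. Of 39 members, 35 passed the filter and 0 were past 2-fold in either direction, with a median log2 ratio of 0.24. Ratios above 1 were found for 26 of the 35, beside 50.4% of all genes, and for 30 with EMT6.5. With 4T1, the whole interval lay above 1 for 21 of the 35 and below 1 for 6, beside 22.7% and 22.5% of all genes. Pecam1 stood at 2969.8 CPM with 4T1, 3434 CPM with EMT6.5 and 2261 CPM alone, a ratio of 1.31 (1.28 to 1.35). Cdh5, which encodes VE-cadherin, had a ratio of 1.15 (1.10 to 1.21), and the receptors Kdr and Tek had 1.19 (1.16 to 1.22) and 1.36 (1.18 to 1.57). Vwf, the clotting factor of endothelial storage granules, stood at 12.4 CPM (73 reads) with 4T1, 23.2 CPM (136 reads) with EMT6.5 and 6.69 CPM (32 reads) alone, a ratio of 1.85 (1.20 to 2.89). Of 18 junction genes past the filter, 0 were past 2-fold.

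Few genes of vessel formation were past 2-fold. The whole interval lay above 1 for 10 of 20 VEGF, angiopoietin and tip cell genes and for 8 of 12 arterial, venous and flow genes, beside 22.7% of all genes. Of 20 VEGF, angiopoietin and tip cell genes past the filter, 1 was at least 2-fold higher (5%, beside 2.73% of all genes) and 0 lower. This was Pgf, placental growth factor, at 43.7 CPM with 4T1, 39.5 CPM with EMT6.5 and 15.5 CPM alone, a ratio of 2.82 (2.17 to 3.70). Of 12 arterial, venous and flow genes past the filter, 1 was at least 2-fold higher (8.33%, beside 2.73% of all genes) and 0 lower. This was the water channel Aqp1, at 3.89 (2.25 to 7.15) on 77 reads with 4T1 and 16 alone. None of 16 Notch genes was past 2-fold, with the ligand Dll4 at 1.32 (1.13 to 1.56) and Notch1 at 0.990 (0.908 to 1.08). Of 24 immediate early genes past the filter, 2 were at least 2-fold higher (8.33%, beside 2.73% of all genes) and 0 lower. These were Atf3 and the nuclear receptor Nr4a2, with Nr4a2 at 16.4 CPM with 4T1, 41.7 CPM with EMT6.5 and 6.69 CPM alone. For the 24, the whole interval lay above 1 for 13 and below 1 for 3, beside 22.7% and 22.5% of all genes.

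Growth programmes were not past 2-fold. Of 40 DNA replication genes and 33 mitosis genes, 0 were past 2-fold in either direction, with median log2 ratios of -0.19 and 0.17. The proliferation marker Mki67 stood at 80.0 CPM with 4T1, 33.7 CPM with EMT6.5 and 70.3 CPM alone, a ratio of 1.14 (0.988 to 1.31). Of the genes of hypoxia response, 22 passed the filter and 0 were at least 2-fold higher, with a median log2 ratio of 0.23. Ratios above 1 were found for 17 of the 22, beside 50.4% of all genes. The whole interval lay above 1 for 11 and below 1 for 3, beside 22.7% and 22.5% of all genes. The 1 lower gene of that list and of the 16 glycolysis genes past the filter was Pgk1, with 23 reads with 4T1 and 41 alone. Glycolytic genes with near-identical copies in the genome keep few uniquely placed reads, so their values are uncertain. The p53 and heat shock lists had 0 genes past 2-fold, with medians of 0.06 and 0.18. Of the 20 YAP and SRF targets past the filter, 2 were at least 2-fold higher (10%, beside 2.73% of all genes). These were Axl and Tgfb2, Axl as possible carry-over.

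**Figure D5:**
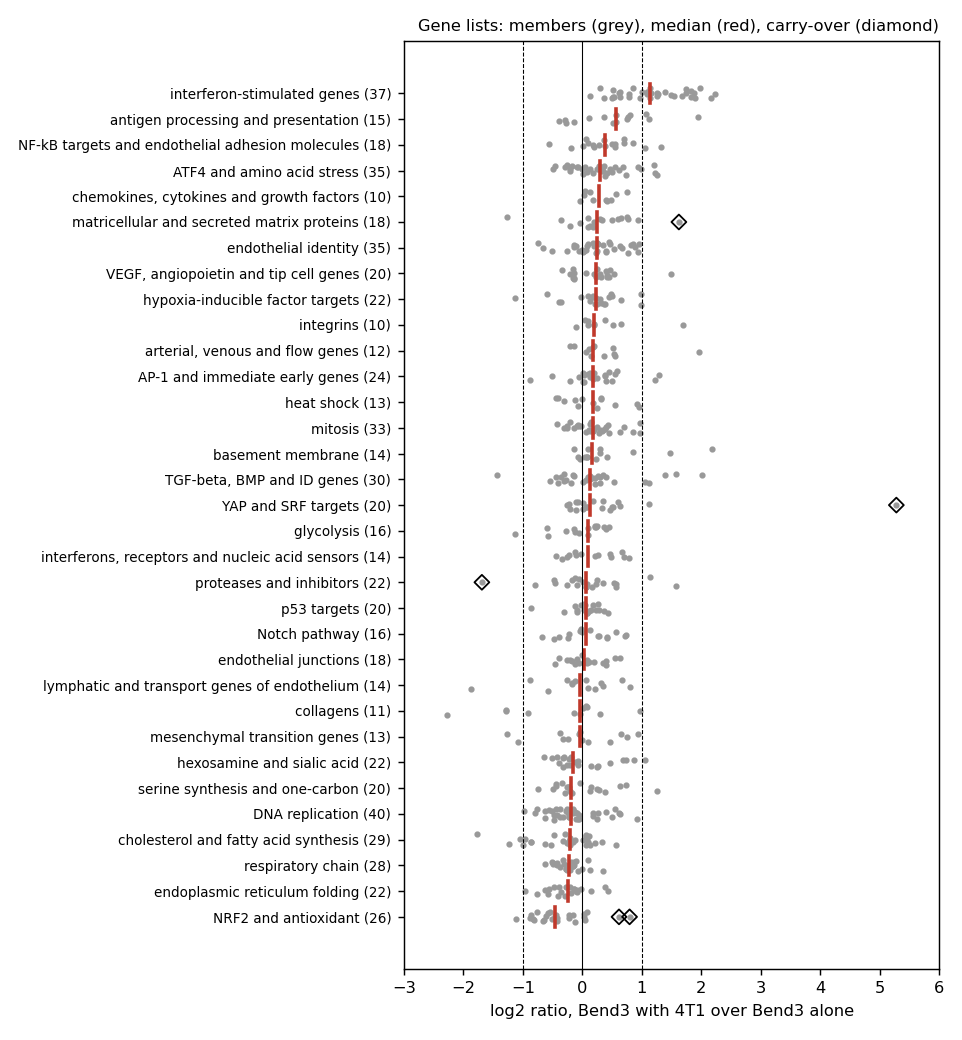
Log2 ratio of Bend3 with 4T1 over Bend3 alone for the members of the gene lists at 5 CPM or more (grey points, number in brackets), with the list median in red, possible 4T1 carry-over ringed by a diamond and dashed lines at 2-fold. Only lists with 5 or more members past the filter are drawn; among them the interferon-stimulated genes have the highest median, 1.14, and the antioxidant genes the lowest, -0.45.

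The genes with the highest ratios at a mean of 10 CPM or more included several outside these lists. Gda, a guanine deaminase, led them with 120 reads (20.3 CPM) with 4T1, 78 reads (13.3 CPM) with EMT6.5 and 15 reads (3.14 CPM) alone, a ratio of 6.47 (3.77 to 11.9). Cabp1, a calcium-binding protein, followed at 22 CPM with 4T1, 16.5 CPM with EMT6.5 and 3.97 CPM alone, a ratio of 5.53 (3.40 to 9.49). Both had 1 read at most in the 4T1 cells. Phf11b, at 4.93 (3.53 to 7.04), Ifi27l2b, at 4.76 (3.30 to 7.06), and Apol9a, at 4.10 (3.33 to 5.08), came next, all 3 from mouse gene families with interferon-induced members. Ifi27l2b stood at 33.8 CPM with 4T1, 7.15 CPM with EMT6.5 and 7.11 CPM alone, and Apol9a at 93.4 CPM with 4T1, 22.7 CPM with EMT6.5 and 22.8 CPM alone.

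Trp53i11 had a ratio of 3.94 (2.95 to 5.36), at 46.2 CPM with 4T1, 58.1 CPM with EMT6.5 and 11.7 CPM alone. Pcdh17, a protocadherin, had 3.60 (2.89 to 4.52), at 75.3 CPM with 4T1, 67.8 CPM with EMT6.5 and 20.9 CPM alone. Chd3, a chromatin remodeller, had 3.82 (2.40 to 6.36), at 17.6 CPM with 4T1, 19.2 CPM with EMT6.5 and 4.60 CPM alone, with 24.3% of its level inside the 4T1 share. These 3 were lowest in Bend3 alone.

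At the other end, Sstr2, a somatostatin receptor, had the lowest ratio. It stood at 10.7 CPM (63 reads) with 4T1, 13.1 CPM (77 reads) with EMT6.5 and 69.5 CPM (332 reads) alone, a ratio of 0.153 (0.115 to 0.201). Nptx1, neuronal pentraxin, was the most abundant of the low genes, at 456 CPM (2695 reads) with 4T1, 786 CPM (4612 reads) with EMT6.5 and 1970.2 CPM (9418 reads) alone, a ratio of 0.231 (0.222 to 0.242). Slc8a1, a sodium and calcium exchanger, stood at 5.92 CPM with 4T1, 8.52 CPM with EMT6.5 and 25.5 CPM alone, a ratio of 0.232 (0.155 to 0.340). All 3 were highest in Bend3 alone. The kinase Sgk2 had 0.214 (0.140 to 0.318) and Gm2115 had 0.177 (0.121 to 0.254). Fabp5, a fatty acid carrier, stood at 7.11 CPM with 4T1, 19.1 CPM with EMT6.5 and 26.1 CPM alone, a ratio of 0.272 (0.187 to 0.388), and was the 1 gene past 2-fold among 14 lymphatic and transport genes past the filter. The lowest 15 also held Col6a3, described above. Further members were Gprin3, Vps33b, Pomgnt2, Ddt, Hnrnpf and the long noncoding RNA Gm37565, with ratios from 0.287 to 0.356. Of these, Gm37565 stood at 4.57 CPM with 4T1, 16.2 CPM with EMT6.5 and 15.9 CPM alone, and Hnrnpf at 5.25 CPM with 4T1, 18.7 CPM with EMT6.5 and 16.1 CPM alone.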

How the data were processed

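RNA of each culture was sequenced once, as 50 bp single-end reads from a stranded mRNA library of 1 µg of total RNA, per the labels' protocols. Per the submitters' processing notes, reads were trimmed with Trim Galore 0.5.0, aligned to GRCm38 (mm10) with HISAT2 2.1.0 and counted per gene with HTSeq. The annotation and the strand setting are not given in the sources used here, so reads of overlapping antisense genes may not be separable. The deposited values are raw read counts per gene. Reads assigned to a gene were 39.8% of entries with 4T1 and 38.9% alone. Entries not uniquely aligned were 48.2% with 4T1 and 50.1% alone, and those in no gene 11.4% with 4T1 and 10.3% alone. Both kinds stayed out of library sizes.

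CPM were computed with pairwise TMM factors (edgeR 4.0.16, R 4.3.3) of 1.006 with 4T1, 1.02 with EMT6.5 and 1 alone. Genes at a mean of 5 CPM over the library with 4T1 and the library alone were kept. With 1 library per group there is no test: ratios carry exact Clopper-Pearson 95% counting intervals, tested on simulated data. Named genes are the 15 highest and 15 lowest ratios at a mean of 10 CPM or more that are not possible carry-over, up to 4 members of each list with the largest ratio past 2-fold and its 2 most abundant members, a fixed set of 15 genes, and the 5 tumour-specific genes highest in 4T1. Exceptions are marked. The lists and named genes were chosen with earlier results of these data known. Gene positions come from the GENCODE annotation of GRCm38, which holds 99.3% of the files' gene identifiers, and promoters from RefSeq. Of the 9952 genes, 7740 had a promoter there. Alternatives were other scalings (DESeq2 1.42.0 size factors among them), filters, thresholds and subtraction of the 4T1 share. A few genes are not reported here.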

Additional observations from a re-analysis of the deposited data

Results flagged for a closer look

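Among the named genes, 3 were at least 2-fold higher with 4T1 while their whole counting interval with EMT6.5 lay below a ratio of 1. All 3 are interferon-stimulated genes. They are not exceptions in their list, where 37 of 37 log2 ratios were above 0 with 4T1 and 7 with EMT6.5. Oas2 had a log2 ratio of 1.89 with 4T1 and -3.69 with EMT6.5, where it had 2 reads. Ifit3b had 1.88 with 4T1 and -0.85 with EMT6.5, and Ifi44 had 1.83 with 4T1 and -0.38 with EMT6.5. The difference between partners was not tested, because each co-culture is 1 library, and both ratios share the library of Bend3 alone.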

How the results depend on the processing

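Library totals, DESeq2 size factors, leaving out the 10 most abundant genes, a prior count of 2 and subtraction of the 4T1 share kept the numbers of genes at least 2-fold higher and lower within 1.5 times the 272 and 190 given. Subtracting the share moved the higher part of the calls to 53.7%, and subtracting its 90th percentile to 49.6%, against 58.9% without subtraction. A filter of 1 CPM gave 902 higher and 690 lower genes, one of 20 CPM 77 and 32, and no filter with a prior count of 2 gave 1746 and 1611, so the counts depend on how many thinly counted genes enter. Counting at 1.5-fold gave 878 and 790, and requiring the whole interval past 2-fold gave 76 and 37. The 4T1 share of 1.868% became 2.04% with genes at 20 CPM or more in 4T1, 1.716% with genes at 0.1 CPM or less in Bend3 alone, 2.377% from epithelial markers and 1.713% as the median over genes. Of 138 log2 ratios compared, 10 moved and 1 reversed after subtraction of the share, and 21 moved and 2 reversed after subtraction of its 90th percentile. Of the named genes, Wfdc2 turned to a log2 ratio of -2.31 after either subtraction and Spp1 to -2.65 after subtraction of the 90th percentile, and both are among the possible carry-over. The share would bring 114% of the Wfdc2 level with 4T1, so nothing is left after subtraction. Its value of -2.31 is set by the floor of 3 counts and is not a measured fall. Set against Bend3 with EMT6.5 in place of Bend3 alone, an alternative chosen after seeing the data, 212 genes were higher and 138 lower. In that comparison 16 of the list medians moved and 17 stayed the same. The interferon list's median log2 ratio of 1.14 ran from 1.09 to 1.15 under the scalings, filters, prior counts and subtractions run, and was 1.60 against Bend3 with EMT6.5. Leaving out a replicate was not possible with 1 library per group. No paired analysis was possible because each group has 1 library and no result comes from a test. Ratios on few reads have intervals several-fold wide, which limits Oasl1, Gda, Smad7 and Itga2.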
